A study of Mus musculus with 14 samples.

Results

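The genes described here are 10 genes of the Hippo, YAP and TEAD pathway (Ccn1, Ccn2, Ankrd1, Amotl2, Ajuba, Lats2, Yap1, Wwtr1, Tead1 and Axl), chosen by name for what they are known to do, out of 28022 genes in a deposited RNA-seq count table of 14 libraries. Earlier results of these data were known when the 10 genes were chosen. The libraries were 2 for each of 7 conditions, all labelled C57BL/6J. Fib were fibroblasts, which the study took from mid-gestation mouse embryos. 2D-iHepSC (2D-iHs) were induced hepatic stem cells made from such fibroblasts by lentiviral Oct4 and Hnf4α and grown flat, and 2D-iHepSCiEC (2D-iHEs) were the same cells grown flat with induced endothelial cells (iECs). 3D-iHA (iHLOs) were spheroids of the induced hepatic stem cells in a gel of Matrigel and type I collagen, and 3D-iHEA (iHEAs) were these spheroids in a gel that also held iECs. Every culture group therefore carried the Oct4 and Hnf4α vectors. The iECs were made with ETV2 from a human fibroblast line, so human RNA can be in the 2D-iHE and iHEA libraries, which were counted on the mouse genome. Adult-Liver and Fetal-Liver were whole liver. For its PCR work the study took such livers from 6-week-old mice and from mid-gestation embryos. In whole tissue and mixed cultures, fewer cells of a type and less RNA per cell cannot be told apart.

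In the Hippo pathway the kinases encoded by Stk3 and Stk4, with the scaffold Sav1, activate the kinases Lats1 and Lats2, which phosphorylate the coactivators YAP (Yap1) and TAZ (Wwtr1) and keep them out of the nucleus. When they are not phosphorylated, YAP and TAZ bind TEAD transcription factors such as Tead1 and raise the transcription of target genes, of which Ccn1 (Cyr61), Ccn2 (CTGF) and Ankrd1 are the most used readouts. Amotl2, a junctional protein that holds YAP, and Lats2 are targets as well as inhibitors, Ajuba is a LIM protein that binds and restrains Lats kinases, and Axl is a receptor tyrosine kinase for the ligand Gas6 that is known as a YAP target. The pathway senses cell density, stiffness and cytoskeletal tension, and in liver YAP is known for control of organ size and for higher activity in bile duct cells than in hepatocytes. RNA-seq counts messages and does not measure where YAP is or whether it is phosphorylated.

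The promoters of 8 of the 10 genes were in the RefSeq table used here (build GRCm38.p6), and 7 of these 8 held the TEAD motif GGAATG on either strand within 250 bases before an annotated start. This motif was in 14.4% of 27025 genes with a promoter. A 22-gene list of YAP and TAZ targets holds 6 of the 10 genes, and promoters were found for 15 of its genes. The motif was in 4 of the 5 of these that belong to the 10 genes and in 2 of the other 10 (20%), near the share of all genes. Among the 10 genes, the promoter without the motif was that of Lats2. The AP-1 motif TGANTCA was in 0 of the 8 promoters, against 7.82% of genes, and the CArG box of serum response factor was in 0 of 8, against 1.62%. A match is a description of the letters and does not show binding. RefSeq and GENCODE place some starts differently. The RefSeq windows of Ankrd1, Amotl2 and Lats2 lie inside the span GENCODE gives these genes, and so downstream of their outermost GENCODE start, as does part of 1 of the windows of Wwtr1. Sequences follow for Ccn1 and Axl, which had large decreases in 3D and whose windows lie outside the GENCODE gene, and, for contrast, for Yap1, which changed little. They run 5′ to 3′ on the minus strand and end at the base before the RefSeq start, and the TEAD motif, in either orientation, is in capitals.
Ccn1 (chr3:145649986-145650235): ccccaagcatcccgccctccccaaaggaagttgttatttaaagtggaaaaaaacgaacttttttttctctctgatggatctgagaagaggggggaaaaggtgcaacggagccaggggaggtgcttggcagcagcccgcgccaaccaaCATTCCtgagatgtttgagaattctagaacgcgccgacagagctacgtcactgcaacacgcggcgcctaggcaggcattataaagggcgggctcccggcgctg
Axl (chr7:25788734-25788983): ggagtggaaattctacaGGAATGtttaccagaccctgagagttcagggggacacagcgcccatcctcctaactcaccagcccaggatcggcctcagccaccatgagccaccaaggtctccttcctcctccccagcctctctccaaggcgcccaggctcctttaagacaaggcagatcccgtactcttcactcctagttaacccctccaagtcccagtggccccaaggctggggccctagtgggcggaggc
Yap1 (chr9:8004597-8004846): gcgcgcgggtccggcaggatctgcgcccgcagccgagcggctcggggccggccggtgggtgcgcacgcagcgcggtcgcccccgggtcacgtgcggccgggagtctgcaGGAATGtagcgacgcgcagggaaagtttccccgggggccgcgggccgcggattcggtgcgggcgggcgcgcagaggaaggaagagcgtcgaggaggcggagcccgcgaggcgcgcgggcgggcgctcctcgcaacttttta

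The motif nearest the RefSeq start ended 98 bases before it in Ccn1, 118 in Ankrd1, 228 in Axl and 136 in Yap1. The Ankrd1 window held another copy 205 bases before that start. The windows of Ccn1, Ankrd1, Axl and Yap1 thus all held the motif, while their levels were lower in 3D culture by 21.3-, 8.65-, 8.53- and 1.08-fold.

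In the GENCODE annotation of GRCm38 the 10 genes are protein coding and lie at Ccn1 chr3:145646976-145649981 (- strand), Ccn2 chr10:24595442-24598683 (+ strand), Ankrd1 chr19:36111961-36120099 (- strand), Amotl2 chr9:102716672-102733418 (+ strand), Ajuba chr14:54567472-54577558 (- strand), Lats2 chr14:57689662-57758388 (- strand), Yap1 chr9:7931999-8004596 (- strand), Wwtr1 chr3:57455649-57575910 (- strand), Tead1 chr7:112679318-112906807 (+ strand) and Axl chr7:25757273-25788705 (- strand). Their levels come from reads over all exons, and Ccn2, Lats2 and Yap1 each overlap an exon of another annotated gene, so reads over these bases can be assigned differently by other counting rules.

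The libraries held 20851489 to 35143325 counts, and all 10 genes passed the filter on low counts. Levels are CPM, counts scaled to library size by TMM over the 14 libraries, and levels per kilobase of exon (RPKM) are used where genes are compared with each other. Library scale factors were 1.116 to 1.211, except in Adult-Liver (0.412 and 0.42), where Alb alone took 23.6% and 22.5% of the counts. The 2 iHEA libraries and the 2 Fetal-Liver libraries differed more from each other than the other pairs did, with a chi-square per gene of 10.8 and 13.3 against 3.03 to 3.53. Nothing says that the libraries of a condition came from separate cultures or animals. The p-values thus measure only the spread between these libraries, which may be technical. In 3D against 2D, conditions with and without iECs were pooled, so the spread there also holds differences between those conditions. Adjusted p-values are from edgeR's quasi-likelihood test with Benjamini-Hochberg adjustment over all genes tested, and a gene is called when this value is under 0.05. A fit that leaves out 1 library leaves a single library in that condition, which is then assumed to vary like the other groups.

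The 3D cultures were compared with the 2D cultures to ask how the culture method changes the cells. The 3 classic YAP targets and Axl were lower in the 3D libraries by 8.53- to 21.3-fold, while the genes for YAP, TAZ, TEAD1 and the upstream regulators were lower by 1.08- to 1.68-fold. Ccn1, a secreted matricellular protein, was at 746 and 761 CPM in 2D-iHs and 704 and 713 CPM in 2D-iHEs, and at 31.1 and 38 CPM in iHLOs and 30.4 and 34 CPM in iHEAs. The groups did not overlap, and the fold change was 21.3 (log2 fold change -4.41 ± 0.07 SE, adjusted p = 4.14e-12). Ccn1 had the 65th lowest log2 fold change of 13409 genes.

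Ccn2, another secreted matricellular protein, was at 385 and 387 CPM in 2D-iHs and 517 and 526 CPM in 2D-iHEs. It was at 45.2 and 48.8 CPM in iHLOs and 38.9 and 43 CPM in iHEAs. All 3D libraries were below all 2D libraries, by 10-fold on average (log2 fold change -3.33 ± 0.12, adjusted p = 7.25e-10). Ankrd1, a nuclear ankyrin repeat protein known from heart and muscle, was at 286 to 299 CPM in the 4 2D libraries and at 30.7 to 37.1 CPM in the 4 3D libraries. This was 8.65-fold lower (-3.11 ± 0.06, adjusted p = 8.86e-12).

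Axl was at 378 and 379 CPM in 2D-iHs and 479 and 507 CPM in 2D-iHEs. In 3D it was at 41.1 and 46.7 CPM in iHLOs, and at 72.9 CPM in iHEA replicate 1 and 38.1 CPM in the other iHEA library, whose name carries conflicting numbers. The iHEA libraries thus differed by 1.92-fold for this gene, and both were far below every 2D library (8.53-fold, log2 fold change -3.09 ± 0.19, adjusted p = 4.81e-08).

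The coactivator and TEAD messages fell less. Wwtr1 was at 108 to 122 CPM in 2D and 62.8 to 72 CPM in 3D (log2 fold change -0.75 ± 0.05, adjusted p = 1.16e-07). Tead1 was at 230 to 254 CPM in 2D and 158 to 173 CPM in 3D (-0.51 ± 0.05, adjusted p = 1.06e-06). Yap1 was at 121 to 124 CPM in 2D and 108 to 114 CPM in 3D. Its groups did not overlap, but the change was -0.11 ± 0.03 (adjusted p = 0.0134). Yap1 was not called in 3 other fits: without the filter on low counts (adjusted p = 0.0886), with the library number as a replicate block (0.0549) and with all 14 libraries (0.25). The last of these fits kept each condition as its own group.

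Of the regulators, Amotl2 was at 237 to 282 CPM in 2D and 146 to 179 CPM in 3D (log2 fold change -0.62 ± 0.07, adjusted p = 9.16e-06). Ajuba was at 84.6 to 111 CPM in 2D and 69 to 83.7 CPM in 3D (-0.35 ± 0.09, adjusted p = 0.00397). Lats2 was at 28.4 to 31.1 CPM in 2D and 21.2 to 26.2 CPM in 3D (-0.24 ± 0.07, adjusted p = 0.00773). For Ajuba the lowest 2D library and the highest 3D library were close, and no 3D library reached a 2D one.

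**Figure D1:**
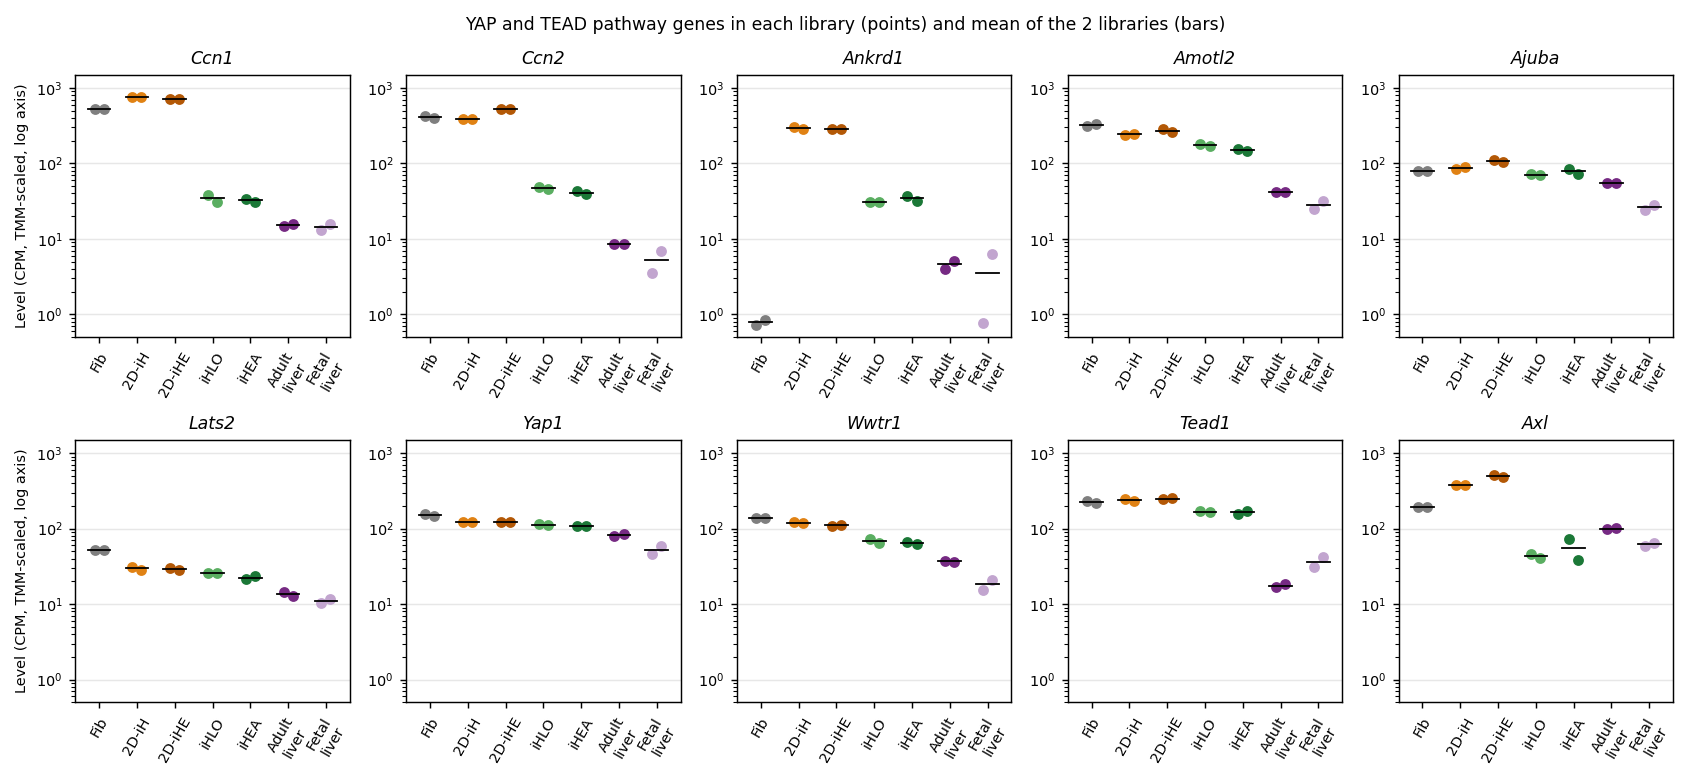
Level of each gene (CPM scaled by TMM, log axis) in each library (points) of the 7 conditions, with the mean of the 2 libraries (bars). Ccn1, Ccn2, Ankrd1 and Axl drop from the 2D to the 3D cultures by about a decade, whereas Yap1 stays between 108 and 124 CPM in all 8 culture libraries.

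All 10 genes were called lower in 3D, where 75.9% of all genes tested were called in either direction and 37.2% were called lower. The highest 3D value lay under the lowest 2D value for all 10, as it did for 37.3% of all genes tested. By at least 1 on the log2 scale, 4 of the 10 were called lower, against 11.3% of all genes. The median log2 fold change was -0.69 for the 10 genes and 0.01 for all genes. As the 10 genes were chosen with earlier results of these data known, these counts are not independent support.

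Without iECs (iHLOs against 2D-iHs), 8 of the 10 were called lower, where 72.3% of genes were called and 35.3% called lower. The exceptions were Lats2 at -0.15 (95% interval -0.3 to 0.01, adjusted p = 0.08) and Yap1 at -0.06 (-0.16 to 0.03, adjusted p = 0.203). Lats2 was called when either iHEA library was left out of the fit (adjusted p = 0.0415 and 0.0419). With iECs (iHEAs against 2D-iHEs), all 10 were called lower, where 70.9% were called and 34.9% called lower. The Yap1 change was -0.15 there, and it was not called in a fit of all 14 libraries (adjusted p = 0.203). The largest changes were those of Ccn1 on both sides, at -4.4 without and -4.42 with iECs.

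**Figure D2:**
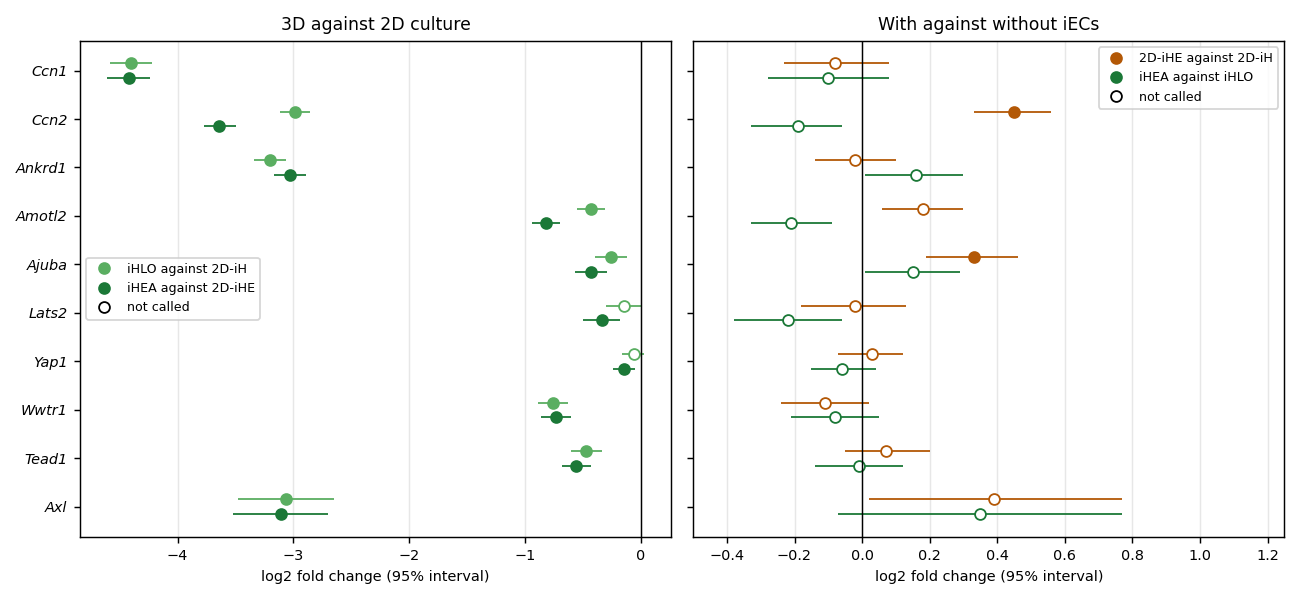
Log2 fold change of each gene with its 95% interval in 3D against 2D culture (left panel, without and with iECs) and with against without iECs (right panel, in 2D and in 3D), where filled points were called and open points were not. The 4 genes with large decreases in 3D lie between -4.42 and -2.99, and the horizontal scale of the right panel is much narrower.

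The co-cultures were compared with the cultures of hepatic cells alone to ask what iECs add. In 2D, Ccn2 rose from 385 and 387 to 517 and 526 CPM (log2 fold change 0.45 ± 0.05, adjusted p = 0.000326), and Ajuba rose from 84.6 and 89.5 to 105 and 111 CPM (0.33 ± 0.06, adjusted p = 0.008). These 2 of the 10 genes were called, both higher, where 8.17% of all genes were called and 4.26% were called higher. The Ajuba call was lost without 2D-iHs replicate 1 or without 2D-iHEs replicate 1 (adjusted p = 0.115 each). Axl was at 378 and 379 CPM in 2D-iHs and 479 and 507 CPM in 2D-iHEs, a log2 difference of 0.39 (95% interval 0.02 to 0.77) that was not called (adjusted p = 0.195). It was called on leaving out either iHEA library, which vary for this gene (adjusted p = 3.42e-06 and 3.58e-06), and without the filter on low counts (4.18e-10). Amotl2, at 0.18 (adjusted p = 0.0664), was called on leaving out the same libraries (0.0131 and 0.013), with DESeq2 (0.0333), with library size alone (0.0306) and without the filter (0.0325).

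In 3D (iHEAs against iHLOs), 0 of the 10 genes were called by edgeR, where 2.26% of all genes were, while 5 had an unadjusted p under 0.05 and DESeq2 called 1 of them, Amotl2 (-0.20). The differences ran from -0.22 for Lats2 to 0.35 for Axl, with 95% intervals of -0.38 to -0.06 and -0.07 to 0.77. Without the filter on low counts, Axl (0.33), Ccn2 (-0.21) and Amotl2 (-0.23) were called. The count also depended on the iHEA libraries. With iHEA replicate 1 as the single iHEA library, Ankrd1 (0.26), Ajuba (0.24), Lats2 (-0.31) and Axl (0.72) were called, and with the other one alone, Ccn2 (-0.26) and Amotl2 (-0.24) were. These calls rest on 1 library against 2, with the spread taken from the other groups, and the Axl difference had opposite signs for the iHEA libraries (0.72 and -0.19).

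The iEC effect in 3D differed from that in 2D for Ccn2 (difference of log2 fold changes -0.64 ± 0.08, adjusted p = 0.00147) and Amotl2 (-0.39 ± 0.08, adjusted p = 0.0186). These 2 of 10 were both lower, where 3.14% of all genes were called and 1.62% were called lower. Ccn2 was higher with iECs in 2D and slightly lower in 3D, from 45.2 and 48.8 to 38.9 and 43 CPM. The Amotl2 levels were 237 and 245 CPM in 2D-iHs, 259 and 282 in 2D-iHEs, 168 and 179 in iHLOs and 146 and 154 in iHEAs. The Amotl2 call was lost when 2D-iHs replicate 1 (adjusted p = 0.119), 2D-iHs replicate 2 (0.0585), 2D-iHEs replicate 1 (0.135) or iHLO replicate 1 (0.119) was left out and in a fit of all 14 libraries (0.0792), and the Ccn2 call was kept in each of these fits. With 1 iHEA library left out, further genes were called. Without iHEA replicate 1 these were Ajuba (-0.27, adjusted p = 0.0497) and Axl (-0.59, adjusted p = 0.000155), both lower. Without the iHEA library with conflicting numbers they were Ankrd1 (0.27, adjusted p = 0.0413) and Axl (0.33, adjusted p = 0.0183), both higher, so the sign for Axl depended on which iHEA library was kept. How much human RNA the co-cultures held was not tested.

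The 2D-iHs were compared with Fib, the cell type they were made from. Ankrd1 showed by far the largest change of the 10 genes. It was at 0.732 and 0.842 CPM in Fib (27 and 26 counts) and at 288 and 299 CPM in 2D-iHs (9492 and 11070 counts), a 373-fold difference (log2 fold change 8.54 ± 0.39, adjusted p = 7.13e-12). Axl rose from 194 and 195 to 378 and 379 CPM (0.96 ± 0.17, adjusted p = 7.55e-05) and Ccn1 from 518 and 525 to 746 and 761 CPM (0.53 ± 0.08, adjusted p = 1.36e-05).

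Against Fib, Lats2 fell from 51.7 and 52.2 to 28.7 and 31.1 CPM (log2 fold change -0.80), Amotl2 by 0.41, Yap1 by 0.33 and Wwtr1 by 0.21 on the log2 scale. The Wwtr1 call (adjusted p = 0.0316) was lost on leaving out any of the 4 libraries compared (adjusted p = 0.0549 to 0.147), without the filter (0.0653) and with library size alone (0.0502). Ccn2, Ajuba and Tead1 were not called, with 95% intervals of -0.34 to 0.12, -0.02 to 0.29 and -0.11 to 0.28. Ccn2 was called lower with a stricter filter (-0.28) and in a fit of these 4 libraries alone (-0.21). Ajuba was called higher without the filter on low counts (0.20, adjusted p = 0.00787) and without Fetal-Liver replicate 1 (0.14, adjusted p = 0.0459), and Tead1 was called higher without the filter (0.15, adjusted p = 0.0456). In all, 3 genes were called higher and 4 lower, where 83.9% of all genes were called, 45.8% higher and 38.1% lower, so the count of calls among the 10 is near that of all genes. The median of all genes was 0.12 here, and 0.02 with DESeq2 size factors. Other lists moved in the same comparison. All 6 proliferation genes were higher in 2D-iHs (sums of 602 to 622 CPM in Fib and 1160 to 1240 CPM in 2D-iHs), as were 7 of 9 immediate early genes (279 to 286 and 683 to 733 CPM), with 2 lower. Of the 12 SRF and actin cytoskeleton genes 9 were lower and 1 higher (6740 to 6860 and 3910 to 3960 CPM), and 9 of 9 fibroblast markers tested were lower. Of the markers tested, 6 of 8 endothelial, 6 of 9 hepatocyte, 4 of 6 cholangiocyte and 2 of 4 leukocyte genes were higher and 0, 1, 2 and 0 were lower. The part of these lists in the changes from Fib was not tested.

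Adult-Liver was compared with Fetal-Liver. The direction for most of the 10 genes depended on the scaling. With TMM scaling 7 were called higher, 1 lower and 2 not, and with library size alone 0 were called higher and 9 lower, since that scaling moves the median of all genes from -0.06 to -1.54. Of all genes tested, 83.7% were called with TMM, 40.8% of all genes as higher and 42.9% as lower. With library size alone 15.9% of all genes were called higher and 75.7% lower. A change of scaling shifts all genes by nearly the same amount. Set against the median of all genes, the changes were therefore the same under both scalings within 0.01. They were 1.15 for Ajuba, 1.09 for Wwtr1, 0.75 for Axl and 0.15 for Ccn1 under both, and for Tead1 -0.98 with TMM and -0.99 with library size.

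With TMM, Wwtr1 was at 36.5 and 37.8 CPM in adult and 15.5 and 21.1 CPM in fetal liver, and Yap1 at 80.4 and 84.4 CPM in adult and 45.9 and 58.4 CPM in fetal liver. With library size alone both turned to lower in adult liver (-0.46 and -0.82). Tead1 was lower in adult liver under both scalings, and so opposite to Wwtr1 and Yap1 only with TMM. With TMM it was at 16.7 and 18.5 CPM in adult and 31 and 42 CPM in fetal liver (-1.05 ± 0.13, adjusted p = 1.14e-06). The Lats2 call (0.31) was lost without Adult-Liver replicate 1 (0.26, adjusted p = 0.0747), without Fetal-Liver replicate 1 (0.23, adjusted p = 0.0898) and in a fit of the 4 liver libraries alone (0.28, adjusted p = 0.0881). Ankrd1 could not be placed. It had 25 counts in Fetal-Liver replicate 1 and 188 in replicate 2, an 8.31-fold difference in CPM, and its log2 fold change was -0.45 without replicate 1 and 2.57 without replicate 2.

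Across the 7 conditions, 9 of the 10 genes had their lowest level in a liver or in Fib, and the exception was Axl. For Ccn1 the order was 2D-iHs (754 CPM), 2D-iHEs (708), Fib (522), iHLOs (34.6), iHEAs (32.2), Adult-Liver (15.2) and Fetal-Liver (14.3), a span of 52.7-fold. Neighbours overlapped for iHLOs and iHEAs and for both livers. For Ccn2 the order was 2D-iHEs (522 CPM), Fib (416), 2D-iHs (386), iHLOs (47), iHEAs (40.9), Adult-Liver (8.59) and Fetal-Liver (5.19), and no neighbours overlapped. The 3D cultures thus lay between the 2D cultures and the livers for both genes.

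For Ankrd1 the order was 2D-iHs (293 CPM), 2D-iHEs (287), iHEAs (34.3), iHLOs (31), Adult-Liver (4.6), Fetal-Liver (3.53) and Fib (0.787). The 2D groups overlapped, and the Fetal-Liver range overlapped those of both Adult-Liver and Fib. For Axl the order was 2D-iHEs (493 CPM), 2D-iHs (378), Fib (195), Adult-Liver (99.5), Fetal-Liver (61.8), iHEAs (55.5) and iHLOs (43.9), so Axl in iHLOs was below both livers. Its last 3 groups overlapped with their neighbours. Yap1 had the narrowest span, 2.94-fold, from Fib (153 CPM) to Fetal-Liver (52.1 CPM). The positions of Adult-Liver rest on its TMM factor.

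Per kilobase of exon, the 10 genes in 2D-iHs spanned from 4.29 RPKM for Lats2 to 373 RPKM for Ccn1, with Ccn2 at 135, Ankrd1 at 101 and Axl at 75.2 RPKM above all the others. In iHLOs the highest were Amotl2 (27.6 RPKM), Ajuba (19.4), Ccn1 (17.1) and Ccn2 (16.4), and Axl (8.73) and Lats2 (3.76) were the lowest. Wwtr1 was above Yap1 per kilobase in both (25 against 13.2 RPKM in 2D-iHs and 14.3 against 12.2 RPKM in iHLOs).

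The paralogs of Tead1 differed strongly between conditions. In Fib, Tead1 (16.6 RPKM), Tead3 (11.4) and Tead2 (10.5) were all present and Tead4 was lower (2.25). In 2D-iHs, Tead2 fell to 0.0271 RPKM (4 counts in replicate 1; log2 fold change -8.56 ± 0.27, adjusted p = 8.58e-14) and Tead3 to 0.621 RPKM (-4.20 ± 0.11, adjusted p = 9.06e-15). Tead4 rose to 7.71 RPKM (1.78 ± 0.12, adjusted p = 7.43e-10), and Tead1 stayed at 17.6 RPKM. From 2D to 3D, Tead4 fell (-1.03 ± 0.05, adjusted p = 3.05e-09) and Tead3 rose (1.03 ± 0.10, adjusted p = 1.89e-06). Tead1 was still the highest of the 4 in both 3D cultures, at 12.3 RPKM in iHLOs and 12.2 RPKM in iHEAs. In Fetal-Liver, Tead2 was the highest, at 11.3 RPKM against 2.69 for Tead1. In Adult-Liver, Tead3 was at 2.53 RPKM, Tead2 at 1.91 and Tead1 at 1.3.

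**Figure D3:**
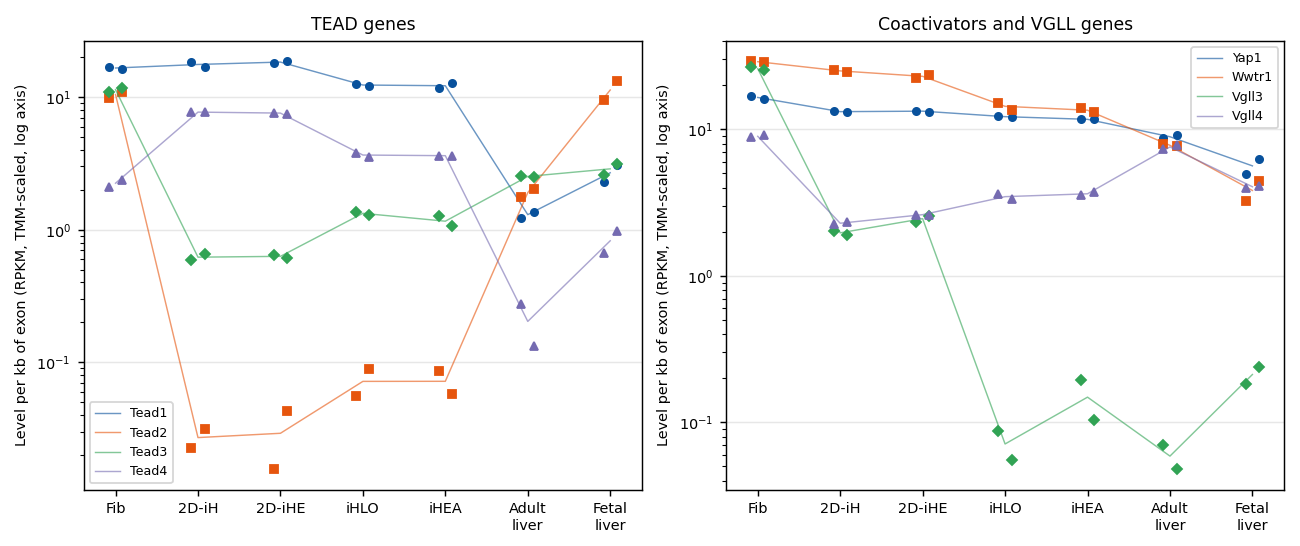
Level per kilobase of exon (RPKM scaled by TMM, log axis) of the TEAD genes (left panel) and of the coactivator and VGLL genes (right panel) in each library (points), with lines through the mean of each condition only to guide the eye. Tead2 and Tead3 drop and Tead4 climbs from Fib to the 2D cultures, and Vgll3 drops again from 2D to 3D.

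The VGLL proteins bind TEAD factors in place of YAP and TAZ. Vgll3 was at 26 RPKM in Fib, 1.96 in 2D-iHs, 2.45 in 2D-iHEs, 0.0712 in iHLOs and 0.149 in iHEAs, and fell from 2D to 3D by 4.27 on the log2 scale (SE 0.24, adjusted p = 2.09e-08). Vgll4, a repressor of TEAD activity, was higher in 3D (0.58 ± 0.07, adjusted p = 1.46e-05). Of this list of 10 coactivator, TEAD and VGLL genes, 7 were tested in the cultures, of which 2 (Tead3 and Vgll4) were higher and 5 lower in 3D, with a median of -0.51. Tead2, Vgll1 and Vgll2 were under the filter there.

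The paralogs of the other genes were described likewise. Lats1 was lower in 3D by 0.21 on the log2 scale (SE 0.04, adjusted p = 0.00071), close to Lats2. Of the angiomotins, Amotl1 was lower (-0.91 ± 0.08, adjusted p = 1.01e-06) and Amot was not called (0.1, 95% interval -0.04 to 0.24). The Ajuba family LIM proteins Limd1 (0.52 ± 0.04, adjusted p = 1.41e-07) and Wtip (1.73 ± 0.06, adjusted p = 6.45e-10) were higher in 3D, opposite to Ajuba. Wtip rose from 27.6 CPM in 2D-iHs to 97.4 CPM in iHLOs and was at 87 CPM in iHEAs.

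Of the CCN family of matricellular proteins, 4 of 6 were tested in the cultures, and Ccn1, Ccn2 and Ccn4 were lower in 3D. Ccn4 fell by 3.05 (SE 0.35, adjusted p = 1.02e-05) between low levels, from 0.859 CPM in 2D-iHs and 1.56 CPM in 2D-iHEs to 0.134 CPM in iHLOs and 0.146 CPM in iHEAs. Ccn5 was higher in 3D (2.77 ± 0.40, adjusted p = 6.12e-05), from 0.199 CPM in 2D-iHs to 0.94 CPM in iHLOs and 2.28 CPM in iHEAs. Ccn3 and Ccn6 were under the filter, at 0.0151 to 0.13 CPM in the 4 culture groups. In Fib, Ccn3 (118 CPM), Ccn4 (111 CPM) and Ccn5 (49.4 CPM) were all well expressed, so that among the CCN genes only Ccn1 and Ccn2 were above 2.28 CPM in any culture group. The median over the 4 tested was -3.19.

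Of the TAM receptors, Axl had the highest level per kilobase in every culture group. Mertk was lower in 3D (-0.59 ± 0.15, adjusted p = 0.00325) and Tyro3 higher (1.09 ± 0.19, adjusted p = 0.000231). The ligands Gas6 (-0.18 ± 0.07, adjusted p = 0.031) and Pros1 (-0.59 ± 0.10, adjusted p = 0.000314) were lower. Together 1 of 5 was higher and 4 lower, with a median of -0.59. Per kilobase, Axl in Adult-Liver (19.8 RPKM) stood beside Mertk (14.7 RPKM), whereas in 2D-iHs it was at 75.2 RPKM against 1.28 for Mertk.

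The other genes of the pathway and of its outputs were counted by list in 3D against 2D, beside 5193 genes higher and 4986 lower among all 13409. Of the 22-gene list of YAP and TAZ targets, 20 were tested, 15 were lower and 3 higher, with a median of -1.04. The 6 genes among them that are described above were all lower. Outside these, Foxf2, a forkhead factor of mesenchyme (-2.52 ± 0.10, adjusted p = 1.33e-09), and F3, tissue factor (-2.22 ± 0.12, adjusted p = 1.06e-08), fell most. Those called higher were Fjx1, a Golgi protein linked to Fat and Dachsous signalling (1.81 ± 0.36, adjusted p = 0.000759, from 0.113 CPM in 2D-iHs to 0.818 CPM in iHLOs), Nt5e (0.49) and Nuak2 (0.15).

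Of the 16 genes of the Hippo kinase cassette and its activators, 11 were lower and 3 higher, with a median of -0.21. The scaffold Frmd6 (-1.69 ± 0.09, adjusted p = 1.69e-08), Map4k4 (-1.38 ± 0.06, adjusted p = 3.97e-09) and Wwc2 (-0.68) fell most, and Taok3 (0.73), Nf2 (0.31) and Taok2 (0.21) were higher. Of 12 junctional and cytoskeletal regulators, 10 were tested, 5 lower and 3 higher, with a median of -0.10. Crb3, an apical polarity protein of epithelia, rose by 4.09 on the log2 scale (SE 0.12, adjusted p = 9.68e-11), from 1.46 CPM in 2D-iHs to 21.7 CPM in iHLOs, and was at 25.7 CPM in Adult-Liver. Ptpn14, a phosphatase that binds YAP, fell (-1.25 ± 0.04, adjusted p = 2.36e-10).

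Of 12 SRF and actin cytoskeleton genes, 10 were tested and 8 were lower in 3D and 0 higher, with a median of -1.11. Cnn2 (-1.93 ± 0.09), Flna (-1.30 ± 0.05) and Vcl (-1.30 ± 0.06) fell most and the factor gene Srf itself least (-0.29 ± 0.06), and Tagln (0.62, 95% interval -0.18 to 1.41) and Tpm2 (-0.73, -1.42 to -0.04) were not called. Of 9 immediate early genes, 6 were lower and 1 (Ier2, 0.49) higher, with a median of -0.93. Fosl1, a component of AP-1, fell most (-4.90 ± 0.16, adjusted p = 2.66e-10), from 10.6 CPM in 2D-iHs to 0.254 CPM in iHLOs, followed by Fosb (-1.94) and Egr1 (-1.84), while Fos and Jun were not called (-0.01 and -0.05).

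**Figure D4:**
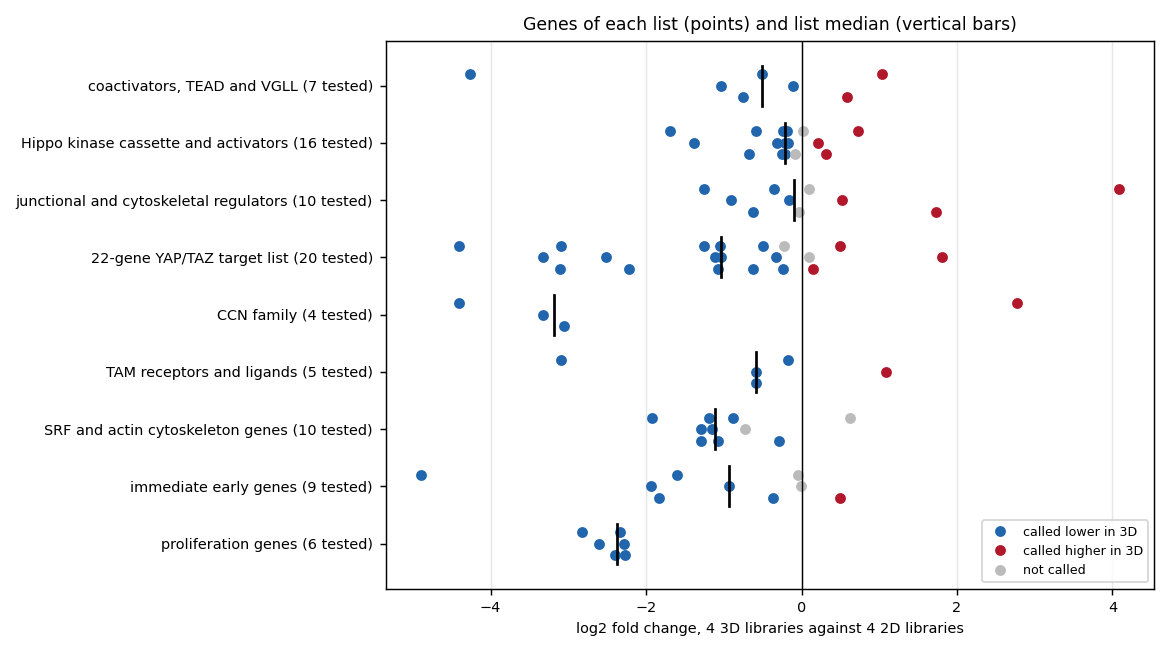
Log2 fold change in the 4 3D libraries against the 4 2D libraries for the tested genes of each list (points, coloured by call), with the list median (vertical bars). The medians run from -3.19 for the CCN family to -0.10 for junctional and cytoskeletal regulators.

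Markers of other cell types and of proliferation were read beside these results. All 6 proliferation genes (Mki67, Top2a, Ccnb1, Cdk1, Birc5 and Aurkb) were lower in 3D with a median of -2.37, and their summed level was 1130 to 1240 CPM in the 2D libraries and 206 to 244 CPM in the 3D libraries. Their part in the lower YAP target levels was not tested. The 10 fibroblast markers summed to 30300 to 31600 CPM in Fib and to 4.69 to 14.4 CPM in the 8 culture libraries, where Lum and Thy1 were at 0 in 2D-iHEs, iHLOs and iHEAs (3 of 5 tested were higher and 1 lower in 3D, at these low levels). Ankrd1 was itself at 0.732 to 0.842 CPM in Fib. The 10 endothelial markers summed to 420 to 490 CPM in 2D and 874 to 1360 CPM in 3D (6 of 7 tested higher, 0 lower), with Cldn5 at 0 in every culture group. These sums rest mainly on Cdh5 (415 CPM in 2D and 397 CPM in 3D, means of 4 libraries), with Vwf (20.6 and 569 CPM) and Tek (1.66 and 97.3 CPM) in 3D. Pecam1 (0.111 and 0.487 CPM), Kdr (0.481 and 0.0449 CPM) and Emcn (0.00758 and 0.0147 CPM) were low in both. With iECs in 3D, 0 of the 7 tested were called higher and 4 lower in these mouse counts, and their sum was 1210 to 1360 CPM in iHLOs and 874 to 943 CPM in iHEAs. In 2D, 0 of the 7 were called higher and 3 lower with iECs, and their sum was 484 to 490 CPM in 2D-iHs and 420 to 432 CPM in 2D-iHEs. The part of endothelial genes in the results, the iEC changes of Ccn2 and Ajuba included, was not tested.

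The 10 hepatocyte markers summed to 633 to 680 CPM in 2D and 1010 to 1050 CPM in 3D, against 598000 to 638000 CPM in Adult-Liver and 11800 to 14900 CPM in Fetal-Liver, and 3 of the 5 tested were higher in 3D. In the cultures these sums rest on Apoa1 (294 CPM in 2D and 255 CPM in 3D, means of 4 libraries) and Apob (358 and 691 CPM), with Ttr in 3D (1.98 and 80.8 CPM). Tat and Alb were low and uneven. Tat ran from 0.041 to 0.297 CPM in 2D and from 1.27 to 2.15 CPM in 3D, except for 15.8 CPM in iHEA replicate 1. Alb was at 5.66 CPM in 2D-iHs replicate 1, at 0.0746 to 0.273 CPM in the other 2D libraries and at 0.0883 to 0.587 CPM in 3D, so that these ranges overlapped. The means of Fgb, Cps1 and Asgr1 ran from 0.077 to 0.166 CPM, and Cyp2e1 and Serpina1c were at 0 in every 3D library. The 6 cholangiocyte markers summed to 1060 to 1300 CPM in 2D and 1170 to 1470 CPM in 3D, with 3 higher and 2 lower. These sums rest mainly on Krt19 (800 CPM in 2D and 653 CPM in 3D, means of 4 libraries) and Krt7 (351 and 400 CPM). The mean of Epcam went from 12.7 to 257 CPM and that of Sox9 from 6.61 to 2.2 CPM. With iECs in 2D, 2 of the 5 hepatocyte markers tested and 1 of the 6 cholangiocyte markers were lower and none of either list was higher, and 1 of 5 fibroblast markers was higher. With iECs in 3D, 3 cholangiocyte markers were higher and 0 lower (sums of 1170 to 1230 CPM in iHLOs and 1460 to 1470 CPM in iHEAs), while 1 hepatocyte and 1 fibroblast marker were lower. Their part in the iEC changes was not tested. Erythroid markers (1 of 1 tested higher in 3D) reached 1.14 CPM and leukocyte markers (1 of 2 tested lower) 24.5 CPM in the cultures. In Fetal-Liver the erythroid markers summed to 16300 to 16500 CPM against 288 to 315 CPM in Adult-Liver, and the proliferation genes to 3300 to 3690 CPM against 104 to 109 CPM. The fibroblast markers summed to 1960 to 3240 CPM in Fetal-Liver and 515 to 552 CPM in Adult-Liver (8 of 9 tested lower in adult, 1 higher), and the leukocyte markers to 116 to 145 CPM and 482 to 504 CPM (4 of 4 higher in adult). Of the endothelial markers 4 of 8 were higher in adult and 1 lower, and of the cholangiocyte markers 1 of 6 was higher and 3 lower. The part of these cell types in the difference between the livers was not tested.

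Over the 14 libraries, which share 7 conditions and so are not 14 independent points, the genes most like Ccn1 in log2 CPM were Lrrc75b (Pearson r = 0.996), Capn2 (0.988) and Ttc37 (0.986). Those most like Ccn2 were Nr4a1 (0.994), Rab31 (0.993) and Uxs1 (0.986), and those most like Ankrd1 were Sprr1a (0.99), Jph1 (0.99) and Tagap1 (0.988). For Yap1 they were Trim3 (0.985), Slc41a1 (0.984) and Sptan1 (0.981), and for Wwtr1 Kidins220 (0.99), Phka1 (0.99) and Trim3 (0.988). Among the 10 genes, Ccn1 and Ccn2 had an r of 0.97, as did Yap1 and Wwtr1, whereas Ankrd1 and Lats2 had an r of 0.17.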

How the data were processed

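The authors deposited raw counts per gene for 14 RNA-seq libraries. Per their methods and processing notes, 150 bp paired-end reads were trimmed (Trimmomatic 0.36) and aligned to GRCm38 (mm10) with HISAT2, and Cufflinks and HTSeq were used for annotation and counting. Whether counting used strand is not given in the sources used here, and Ccn2, Lats2 and Yap1 each share exon bases with 1 other annotated gene. The names of the 2 iHEA columns repeat the bracketed number of the same title. In 1 of them a further number, 2, points to the other title, so this library with conflicting numbers entered as a member of its condition with no replicate number.

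Groups came from the sample titles. Genes whose log2(count + 1) averaged 3 or more were tested with edgeR 4.0.16 (quasi-likelihood, TMM, R 4.3.3): 13409 genes in the 8 culture libraries and 14121 in all 14 libraries, the latter for comparisons with Fib and between livers. DESeq2 1.42.0 was an alternative. Intervals are 95%. Exon lengths are from GENCODE (GRCm38). The tests were also run on simulated counts, where few genes changed and all had the same spread. These data differ in both, so that run cannot show the error rates here. Depth sets the level of 1 count at 0.0249 to 0.0708 CPM.

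The 10 genes, lists and tests were chosen with earlier results of these data known, so no count over a list is independent support. Named are the 10 genes, their paralogs and ligands, the genes of each list with the 3 largest and smallest changes in 3D against 2D, and the 3 genes most like 5 of the 10. Foxf2, F3, Tagln, Tpm2, Fos and Jun were named after their values were seen. Same-numbered libraries did not deviate together (r from -0.07 to 0.048 over 15 pairs of groups).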

Additional observations from a re-analysis of the deposited data

Results flagged for a closer look

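In the 4 3D libraries, Ankrd1 in iHEA replicate 1 stood apart. It was at 37.1 CPM and the other libraries lay between 30.7 and 31.6 CPM, so that its gap to the nearest took up 0.865 of the whole range. Chance alone sets about 1 in 20 groups of 4 like libraries apart in this way. The rule was applied to each of the 10 genes in 2D and in 3D, so such a gap can arise by chance. The 3D libraries also pool iHLOs and iHEAs, so this rate is approximate. All 4 levels were far below the 2D range of 286 to 299 CPM.

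The iEC effect differed between 3D and 2D culture for Ccn2 by -0.64 and for Amotl2 by -0.39 on the log2 scale, as tested by the interaction term (adjusted p = 0.00147 and 0.0186).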

How the results depend on the processing

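The 80 log2 fold changes of the 10 genes in 8 comparisons gave 1320 values under other settings, of which 1255 kept their side of the threshold. Any of these that changed direction were called neither in the main fit nor in the other one. Without the filter on low counts, 881 genes (4.23%) and 3 of the 10 were called in iHEAs against iHLOs, 1577 genes (7.57%) and 4 of the 10 in 2D-iHEs against 2D-iHs, and 901 genes (4.32%) and 2 of the 10 for the difference of iEC effects. With DESeq2's Wald test 297 genes (2.26%) and 1 of the 10 were called in iHEAs against iHLOs, and with all 14 libraries 340 genes (2.54%) and 1 of the 10 for the difference of iEC effects. Leaving out 1 library at a time gave 90 to 739 genes and 0 to 4 of the 10 in iHEAs against iHLOs, 257 to 2007 genes and 1 to 4 of the 10 in 2D-iHEs against 2D-iHs, and 129 to 963 genes and 1 to 4 of the 10 for the difference of iEC effects. The highest counts came without an iHEA library, and the cause was not tested. That difference for Axl ran from -0.59 (without iHEA replicate 1) to 0.33 (without the iHEA library with conflicting numbers), both called, and Ankrd1 in Adult-Liver against Fetal-Liver from -0.45 to 2.57.

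With library size alone, Adult-Liver against Fetal-Liver reversed to -1.39 for Ccn1, -0.74 for Ccn2, -0.93 for Amotl2, -0.40 for Ajuba, -1.17 for Lats2, -0.82 for Yap1, -0.46 for Wwtr1 and -0.80 for Axl, as the median of all genes moved to -1.54. The fit with the library number as a replicate block drops the iHEA library with conflicting numbers, so it is set against the fit of the same libraries with no block. In 2D-iHEs against 2D-iHs, 1953 genes were called with the block and 2003 with none, and the same 4 of the 10. In iHEAs against iHLOs, 624 and 647 genes were called, and 2 and 4 of the 10, as Ankrd1 (adjusted p = 0.0601) and Ajuba (0.056) were not called with the block. For the difference of iEC effects, 786 and 801 genes and 3 and 4 of the 10 were called, with Ankrd1 not called (0.0895) and Axl at 0.30. With the block, Yap1 was not called in 3D against 2D (0.0549, and 0.029 with none), nor Lats2 in iHLOs against 2D-iHs (0.062 and 0.0419). The block changed no other call among the 10 genes against that fit. With 2 libraries a condition, the spread rests on few degrees of freedom.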
